A study of Homo sapiens with 4 samples.

Results

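The APOBEC3 genes encode zinc-dependent cytidine deaminases that turn cytosine into uracil in single-stranded DNA, and they lie side by side in a cluster on chromosome 22. They are known as restriction factors, host proteins that block retroviruses and retrotransposons. APOBEC3G, for example, enters HIV particles that lack the viral protein Vif and deaminates the viral cDNA. In carcinomas APOBEC3A and APOBEC3B are known as sources of cytosine mutations in the tumour genome.

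The members studied were 5 genes: APOBEC3A, APOBEC3B, APOBEC3C, APOBEC3F and APOBEC3G. All but APOBEC3A, whose only probe set is shared, were among the 19775 genes with a probe set of their own. They were chosen by symbol, but the family was picked because the signal of APOBEC3G was higher in the ING3 cells of this series. The differences of the members between the groups are therefore descriptions and carry no test. The array held 8 probe sets for the 5 genes, 2 of them shared between genes. A probe set is a group of short oligonucleotides that together report 1 transcript, and its value here is the MAS5 signal, a linear brightness that Affymetrix software calculates. Where a member had several probe sets, its gene value was read from the brightest, by mean log2(signal + 1).

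MIA PaCa-2 is an established human pancreatic carcinoma line. Control cells carried a GFP lentivirus (2 arrays, a and b) and ING3 cells a lentivirus with FLAG-ING3 behind a CMV/TO promoter (2 arrays, a and b), so both groups had been transduced and selected. ING3 is a chromatin reader of the NuA4/TIP60 histone acetyltransferase complex. The labels speak of stable clones without saying how many were pooled, and each group is described as a pair of technical duplicates, so the spread below is that between 2 measurements of 1 cell population. Duplicates correlated across tested genes at r = 0.989 (control) and 0.991 (ING3), and the 3' to 5' signal ratio of ACTB, which rises with RNA degradation, was 2.58 and 1.80 on control arrays a and b and 2.05 and 2.03 on the ING3 arrays. Of the 8 genes listed for epithelial carcinoma identity, KRT8, KRT18, KRT19, MUC1, ITGA6 and VIM were well above the limit for dim features. EPCAM and CDH1, which define epithelial junctions, lay below it on average. VIM, a mesenchymal filament gene, read 27676 and 25627 in control and 24294 and 26668 in ING3 cells. The brightest ING3 probe set gave 338 and 373 in control and 521 and 541 in ING3 cells (log2 difference 0.58, limma adjusted p = 0.071). The 3 others differed by -0.19, 0.018 and 0.50 on the log2 scale. The set at -0.19 read 287.4 and 261.3 in control and 260.5 and 222.2 in ING3 cells, so the groups narrowly did not overlap. The set at 0.50 was under the limit for dim features on every array. It read 27.1 and 25.1 in control and 57.6 and 23.9 in ING3 cells, with overlapping groups. The groups also overlapped for the set at 0.018.

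APOBEC3G was the member with the largest difference. Its brightest probe set, 204205_at, read 375 and 333 on control arrays a and b and 813 and 802 on ING3 arrays a and b. Both ING3 arrays were more than double either control array, and the duplicates lay close together. The means were 354 ± 29.7 (SD, n = 2) and 808 ± 8.06 (SD, n = 2), a 2.28-fold higher signal in the ING3 cells or 1.19 on the log2 scale. Over the 4 pairs of an ING3 with a control array the log2 difference ran from 1.10 to 1.29, against a gap of 0.17 between the control duplicates and 0.020 between the ING3 duplicates. APOBEC3G ranked 19th of 12191 tested features by log2 difference, and it was among 6 features in which all 4 pairs were 2-fold or more higher in ING3 cells. The 5th and 95th percentiles of the log2 difference over all tested features were -0.46 and 0.38. Because the family was picked for this difference, the rank and the place among the 6 features describe APOBEC3G and lend no support.

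**Figure D1:**
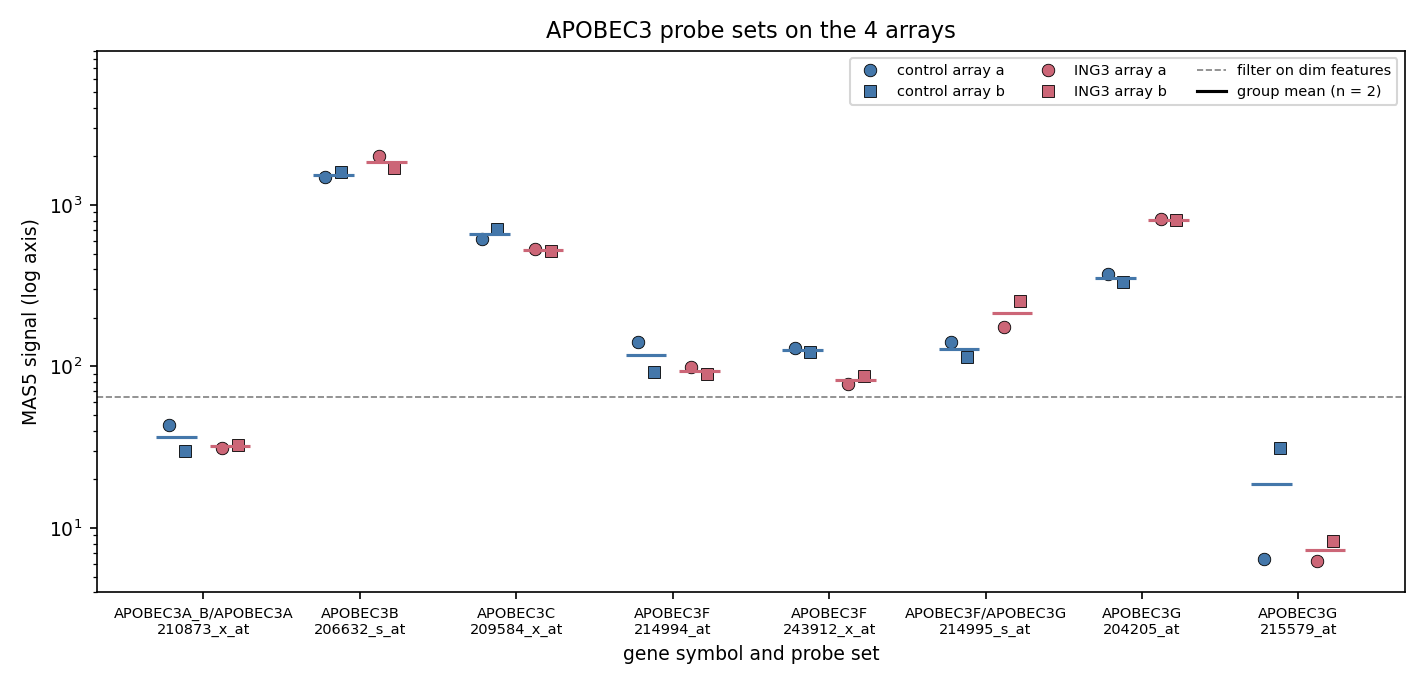
MAS5 signal (log axis) of the 8 APOBEC3 probe sets on control arrays a and b (blue) and ING3 arrays a and b (red), with bars at the group means and a dashed line at the limit for dim features (64.6). APOBEC3G on 204205_at stands at 333 to 375 in control and 802 to 813 in ING3 cells, while the probe sets of APOBEC3A and the second APOBEC3G set lie below the line.

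The second APOBEC3G probe set, 215579_at, gave no usable reading. It read 6.41 and 31.2 in control and 6.27 and 8.31 in ING3 cells, under the signal of 64.6 that served as the limit for dim features. The control duplicates alone were 2.12 apart on the log2 scale, and the groups overlapped. The log2 difference of -0.91 therefore lay within the gap between duplicates.

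A probe set shared by APOBEC3F and APOBEC3G, 214995_s_at, was also higher in the ING3 cells. It read 142 and 114 in control and 175 and 253 in ING3 cells. The groups did not overlap, but the ING3 arrays were 0.52 apart on the log2 scale. The difference was 0.72 on the log2 scale or 1.65-fold, with a range of 0.30 to 1.14 over the 4 pairs. APOBEC3F, the other gene of this set, encodes a tandem-domain restriction factor like APOBEC3G. Since 214995_s_at had the highest mean among its probe sets, it also gives the gene value of APOBEC3F, and that value cannot be told apart from a signal of APOBEC3G.

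The probe sets listed for APOBEC3F alone went the other way. On 243912_x_at the signal was 131 and 123 in control and 78.2 and 87.0 in ING3 cells. Both ING3 arrays were below both control arrays, at 127 ± 5.46 against 82.6 ± 6.25 (SD, n = 2), 1.53-fold lower or a log2 difference of -0.61. The suffix _x_at marks a set whose oligonucleotides can bind other transcripts. On 214994_at the signal was 142 and 92.9 in control and 98.6 and 89.3 in ING3 cells, so that control array a stood above the other 3. Its log2 difference of -0.29 became 0.015 without control array a, and the groups overlapped. Taken from the sets of its own, APOBEC3F thus read lower or level in ING3 cells, and taken from the shared set it read higher.

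The log2 differences of 214995_s_at and 214994_at were 1.01 apart, those of 214995_s_at and 243912_x_at 1.33 and those of 214995_s_at and the APOBEC3G set 204205_at 0.47. The shared set reads from 2 genes, so these gaps were not set against those within single genes. The sets listed for APOBEC3F alone were 0.33 apart. Among the 5906 genes with 2 or more sets of their own past the limit, the brightest and the next had a median gap of 0.16, and 22.8% of these genes had a wider gap than APOBEC3F.

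APOBEC3B, a nuclear member with a pair of deaminase domains, was slightly brighter in the ING3 cells. Its only probe set, 206632_s_at, read 1478 and 1603 in control and 2013 and 1688 in ING3 cells. The groups did not overlap, though ING3 array b was only 0.075 above control array b on the log2 scale. The means of 1540 ± 88.2 and 1851 ± 230 (SD, n = 2) gave a log2 difference of 0.26, close to the gap of 0.25 between the ING3 duplicates.

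APOBEC3C, a single-domain member that acts weakly on HIV, was dimmer in the ING3 cells. On 209584_x_at, a set of the kind that can bind other transcripts, it read 618 and 708 in control and 536 and 515 in ING3 cells. Both ING3 arrays were below both control arrays, at 663 ± 63.1 against 526 ± 14.8 (SD, n = 2). The log2 difference was -0.33, or 1.26-fold lower, with a range from -0.46 to -0.21 over the 4 pairs.

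APOBEC3A, a potent single-domain mutator of DNA, was too dim to compare. Its probe set 210873_x_at is shared with APOBEC3A_B, the fusion transcript of a deletion allele that joins APOBEC3A to the end of APOBEC3B. It read 43.1 and 30.1 in control and 31.4 and 32.9 in ING3 cells, all under the limit of 64.6, and the groups overlapped.

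By gene value, 4 of the 5 members passed the limit for dim features and 1, APOBEC3G, was called by limma at a Benjamini-Hochberg adjusted p under 0.05, where 1.5% of all tested features were called. The groups did not overlap for the gene values of 4 of the 5 members, where 49.2% of all tested features showed no overlap. The contrast that chose the family is the one counted here, so nothing is read from these counts. APOBEC3G was not called when either control array was left out or when limma's variances were not tied to brightness. Nor was it called when its own probe sets were averaged, without the shared one. Its log2 difference was between 1.11 and 1.28 when any 1 array was left out, a range that the 4 pairs of arrays already bounded.

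**Figure D2:**
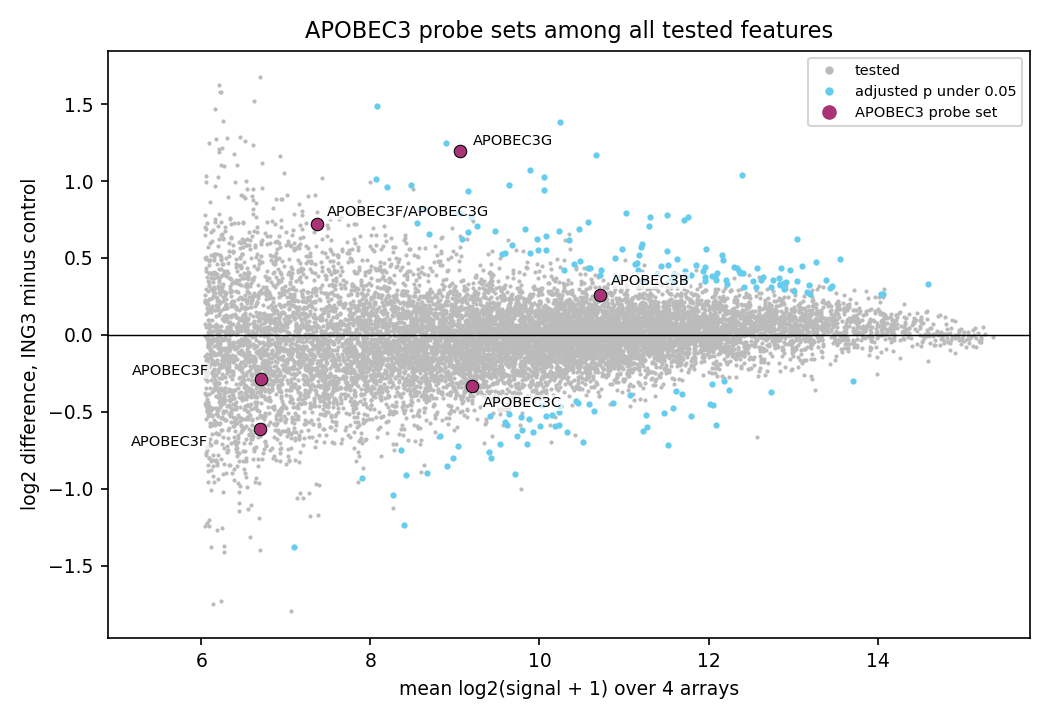
Log2 difference between ING3 and control cells against mean log2(signal + 1) for all 12191 tested features (grey), with called features in light blue and the 6 APOBEC3 probe sets past the limit as labelled points. APOBEC3G at 1.19 lies above the uncalled features of like brightness, while APOBEC3B at 0.26, APOBEC3C at -0.33 and both own sets of APOBEC3F lie among them.

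The difference in APOBEC3G could be followed along the chromosome, since the family and its neighbours are ordered in the RefSeq gene table of GRCh38.p14 as APOBEC3A, APOBEC3B, APOBEC3C, APOBEC3D, APOBEC3F, APOBEC3G and APOBEC3H. APOBEC3D, a tandem-domain relative between APOBEC3C and APOBEC3F, read 121 and 93.2 in control and 110 and 89.5 in ING3 cells, with overlapping groups and a log2 difference of -0.097. Of the 10 measured genes that flank the cluster, 5 on each side, 0 were called by limma (1, DNAL4, had an unadjusted p under 0.05, as did 17.7% of all tested features). Their median log2 difference was 0.017, and that of all tested features was -0.0074. The groups did not overlap for 4 of the 10, where 49.2% of all tested features showed no overlap.

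The immediate neighbours differed little. CBX6, a chromobox protein of Polycomb complexes that precedes the cluster, read 2367 and 2463 in control and 2451 and 2474 in ING3 cells, a log2 difference of 0.028. CBX7, another chromobox protein and the next measured gene after APOBEC3G, read 563 and 524 in control and 535 and 502 in ING3 cells, a log2 difference of -0.067. Further out, DNAL4, an axonemal dynein light chain, had the highest value of the 10 at 0.55 (158 and 176 in control, 243 and 246 in ING3 cells; limma adjusted p = 0.20). NPTXR, a receptor for neuronal pentraxins, had the lowest at -0.56, with control array a at 245 above the other 3 arrays at 128 to 146. The remaining genes GTPBP1, SUN2, PDGFB, RPL3, SYNGR1 and TAB1 lay between -0.17 and 0.15.

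**Figure D3:**
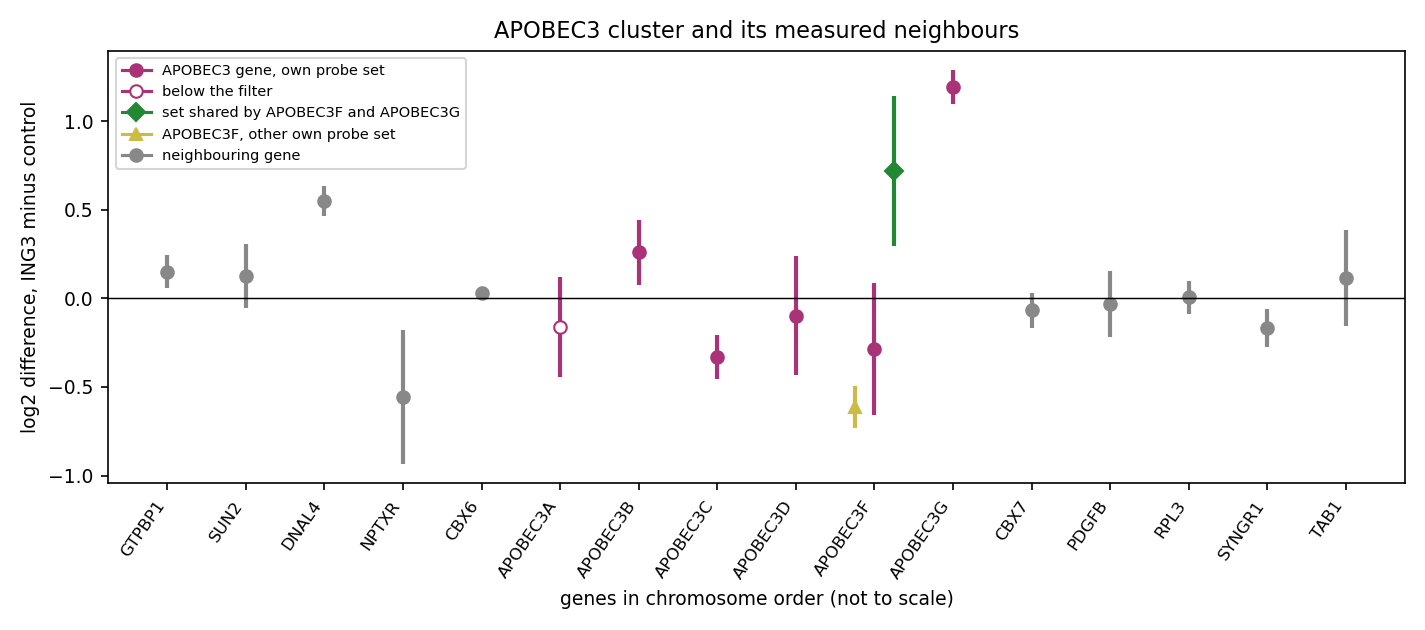
Log2 difference between ING3 and control cells for the APOBEC3 genes and 5 measured genes on each side, in chromosome order; points are differences of group means and lines span the 4 pairs of arrays. APOBEC3G stands at 1.19, CBX6 and CBX7 lie at 0.028 and -0.067, and APOBEC3F is drawn on its own 2 sets and on the set shared with APOBEC3G.

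Other members of the wider deaminase family were mostly dim. Of the AID/APOBEC genes outside the 5, APOBEC1, APOBEC4 and APOBEC3D were measured and only APOBEC3D passed the limit. APOBEC1, the editor of apolipoprotein B mRNA, read 89.5 and 23.5 in control and 46.8 and 55.5 in ING3 cells, with overlapping groups. APOBEC4 read 59.9 and 38.0 in control and 13.9 and 34.6 in ING3 cells, all under the limit. Of 11 tested genes for other deaminases of nucleosides and RNA, 0 were called, where 1.5% of all tested features were. An unadjusted p under 0.05 by limma was also found for 0 of the 11, against 17.7% of all tested features. The list median was -0.021 on the log2 scale. ADAR, which deaminates adenosine in double-stranded RNA, had a log2 difference of 0.0059, DCTD, the dCMP deaminase, -0.013 and ADARB1 -0.20.

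The linked gene lists below were set against the share of all tested features that limma called higher in ING3 cells, 1.03%, or lower, 0.476%. Among 17 tested restriction factors of retroviruses outside the family, 1 rose and 0 fell. IFITM1, a membrane protein that hinders viral entry, rose 1.20-fold (log2 difference 0.27, limma adjusted p = 0.049), from 15650 and 15608 in control to 18331 and 19302 in ING3 cells. It was called under neither quantile normalization (limma adjusted p = 0.054) nor cyclic loess (0.088), nor with either control array or ING3 array b left out. Nor was it called without the limit for dim features (0.13) or with averaged probe sets (0.087). With limma's variances not tied to brightness it was not called either (0.32). The uncalled genes ran from TRIM22, a TRIM family protein induced by interferon, at -0.53 (115 and 85.2 in control, 83.1 and 55.9 in ING3 cells) to BST2, which tethers budding virions, at 0.55 (219 and 165 in control, 277 and 281 in ING3 cells). The groups did not overlap for either gene. The median of the list was 0.028.

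Of 21 tested interferon-stimulated genes, a set to which APOBEC3G belongs in many cell types, 1 rose and 0 fell. HERC5, the ligase that attaches ISG15 to proteins, rose 1.76-fold (log2 difference 0.82, limma adjusted p = 0.028), from 294 and 306 in control to 500.3 and 558 in ING3 cells. It was not called with either control array or ING3 array b left out. Nor was it called without the limit for dim features (limma adjusted p = 0.071) or with averaged probe sets (0.073). With limma's variances not tied to brightness it was not called either (0.24). The uncalled genes ran from MX1, a GTPase that traps viral ribonucleoproteins, at -0.38 to OASL, which enhances RNA sensing, at 0.44. The list median was 0.15, with 14 of 21 genes at a higher mean in ING3 cells.

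The next list held the genes that handle the product of deamination. Of 12 genes for uracil removal and base excision repair 0 were called by limma (5 had an unadjusted p under 0.05, where 17.7% of all tested features did), with a median log2 difference of -0.049. UNG, the main uracil DNA glycosylase, had a log2 difference of 0.22, DUT, the dUTPase that keeps uracil out of DNA, 0.16 and APEX1, which cuts the abasic site, -0.13. FEN1, the flap endonuclease of long-patch repair, had -0.42 (2573 and 2559 in control, 1684 and 2177 in ING3 cells; limma adjusted p = 0.093) and was called without ING3 array b (-0.61, adjusted p = 0.0079).

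The lists of known regulators of APOBEC3 genes also had no called gene. Of 11 genes of NF-kB and its feedback loop, which drives APOBEC3B in some cells, 0 were called by limma (3 at an unadjusted p under 0.05, against 17.7% of all tested features; median -0.045). CXCL8, a chemokine target, differed by 0.22, NFKBIA, the inhibitor, by -0.17 and the subunit RELA by 0.078 on the log2 scale. CXCL8 was called without ING3 array b (0.28, limma adjusted p = 0.047). Of 13 genes of the B-MYB, DREAM and p53 group, which controls APOBEC3B through the cell cycle, 0 were called (2 at an unadjusted p under 0.05; median 0.084). RBBP4, RBL2 and MDM2 differed by 0.046, 0.21 and -0.0032.

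Genes for proteins that work with APOBEC3G were not called. Of 16 genes for its partners in RNA granules 0 were called by limma, and 2 had an unadjusted p under 0.05, where 17.7% of all tested features did. The list median was 0.038. The RNA-binding proteins YBX1, PABPC1 and HNRNPU differed by 0.069, 0.0058 and 0.025 on the log2 scale. Of 5 host genes whose products Vif recruits to degrade APOBEC3G, 0 were called, with a median of 0.055. Among these 5, 1 had an unadjusted p under 0.05 by limma, against the same 17.7%. CBFB, the cofactor that stabilises Vif, differed by 0.14, and the elongins ELOB and ELOC by 0.10 and -0.040.

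**Figure D4:**
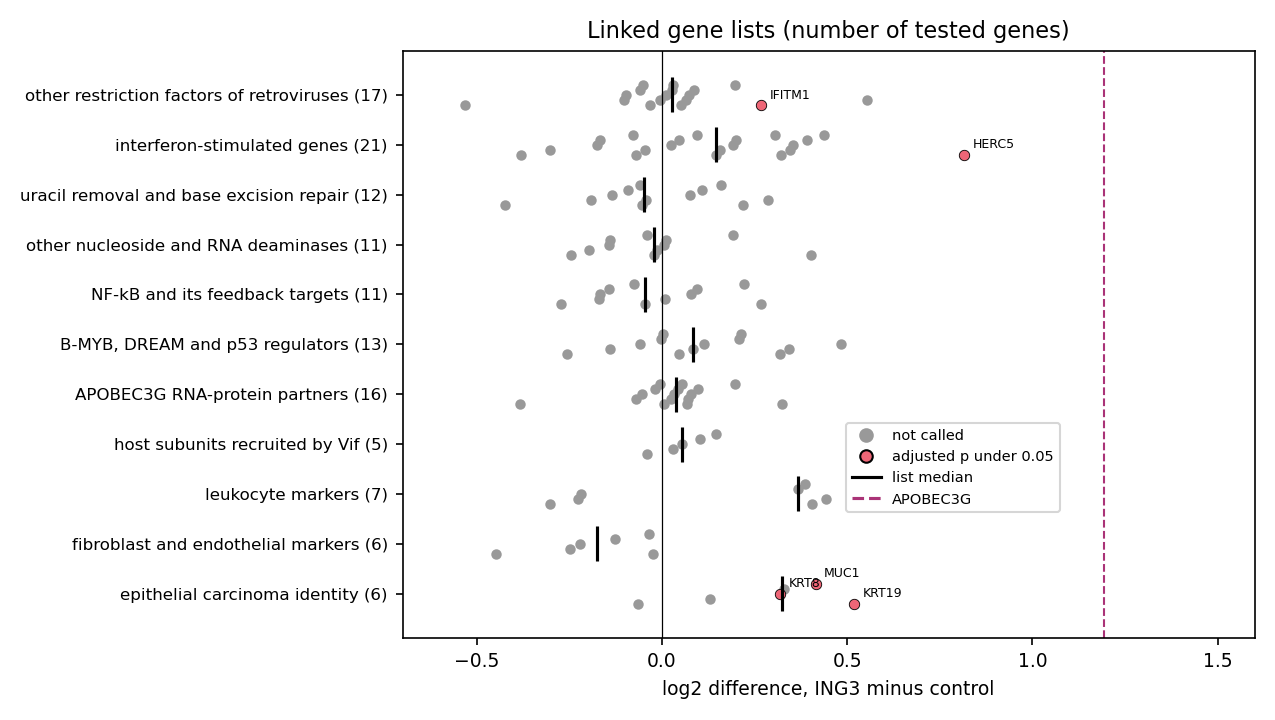
Log2 difference between ING3 and control cells of the tested genes in 11 lists, with called genes in red, list medians as black bars and APOBEC3G as a dashed line at 1.19. The list medians lie between -0.17 and 0.37, and HERC5 at 0.82 is the listed gene nearest to the line.

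Because APOBEC3G is abundant in lymphocytes, markers of other cell types were read beside it. Of 19 measured leukocyte markers 12 were below the limit for dim features, among them PTPRC, the pan-leukocyte phosphatase, and the T cell receptor chains CD3D and CD3G; none of the 19 was at 0. The 7 that passed were CD3E, CD4, CD8A, PRF1, CD79A, LYZ and ITGAM. Of these, CD3E read 129 and 38.8 in control and 87.1 and 42.5 in ING3 cells. CD8A read 202 and 224 in control and 142 and 209 in ING3 cells. The 7 had a median log2 difference of 0.37, and 0 were called by limma. Of the 7, 0 had an unadjusted p under 0.05 and 1 showed no overlap between groups, against 17.7% and 49.2% of all tested features. The summed signal of the 19 was 1471 and 1024 on control arrays a and b and 1396 and 1385 on the ING3 arrays, so the groups overlapped. Of 10 fibroblast and endothelial markers 6 passed, 0 were called (2 at an unadjusted p under 0.05, against 17.7% of all tested features) and all 6 had a lower mean in ING3 cells, with a median of -0.17. The list's summed signal was 6977 and 6675 in control and 5859 and 6132 in ING3 cells. Most of it came from COL1A2, a collagen chain, at 4648 and 4548 in control and 3749 and 3996 in ING3 cells, a log2 difference of -0.25. The next brightest, COL3A1 and CDH5, differed by -0.036 and -0.025. The part of the leukocyte, fibroblast and endothelial markers in the APOBEC3 values was not tested.

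Of 6 tested genes on the epithelial carcinoma list 3 rose and 0 fell, namely KRT19, KRT8 and MUC1. Their log2 differences were 0.52, 0.32 and 0.42 (limma adjusted p = 0.0078, 0.033 and 0.035). None of the 3 was called when either control array was left out, with averaged probe sets, or with limma's variances not tied to brightness. MUC1 was not called without ING3 array b. KRT8 and MUC1 were called under neither quantile normalization nor cyclic loess. The same held without the limit for dim features (limma adjusted p = 0.090 for KRT8 and 0.088 for MUC1). The list's summed signal was 71798 and 69687 in control and 74636 and 80316 in ING3 cells. A large part came from VIM, a mesenchymal filament gene on this list. VIM read 27676 and 25627 in control and 24294 and 26668 in ING3 cells, a log2 difference of -0.065. Of the 6 measured acinar and duct markers only SOX9, a duct transcription factor, passed the limit, at a log2 difference of -0.0043. The part of the epithelial markers in the APOBEC3 values was not tested, nor could fewer cells of a type be told from less RNA per cell.

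The genes most like APOBEC3G were found by the Euclidean distance between log2 signals centred on each gene's mean over the 4 arrays. The nearest 5 were C11orf96, an uncharacterised gene, LAMB3, a chain of the basement membrane protein laminin, CCN2, a matricellular growth factor, AKR1C1, an aldo-keto reductase of steroids, and HLA-DRB1, a chain of HLA class II. Their distances were 0.10, 0.18, 0.19, 0.19 and 0.21, and limma called AKR1C1 and HLA-DRB1 but not the other 3. HLA-DRB1 was not called when either control array was left out (adjusted p = 0.099 and 0.080). CCN2 was called after quantile normalization (0.044) and cyclic loess (0.045). C11orf96 read 83.9 and 76.9 in control and 191 and 172 in ING3 cells. HLA-DRB1 read 296 and 318 in control and 720 and 739 in ING3 cells, on a set of the kind that can bind other transcripts and that may not separate the near-identical HLA-DRB genes. Since 4 arrays fix such a distance, any gene about as much higher in ING3 cells, with close duplicates, ranks near APOBEC3G.

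The APOBEC3 probe sets were read again under the 7 alternatives that can move the difference of a single set: another pseudocount, 2 other scalings and each array left out in turn. The APOBEC3G difference on 204205_at lay between 1.11 and 1.28 on the log2 scale, while the mean over the 3 sets that name APOBEC3G was 0.33. The shared set lay between 0.46 and 0.98. APOBEC3B kept a higher signal in ING3 cells (0.13 to 0.39), and APOBEC3C and the set 243912_x_at of APOBEC3F kept a lower one (-0.43 to -0.23 and -0.69 to -0.47). For these sets, 204205_at and the shared set, all 4 pairs of arrays already had the same direction. Leaving out an array could therefore not reverse any of them. The set 214994_at of APOBEC3F crossed zero, from -0.59 without control array b to 0.015 without control array a.

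**Figure D5:**
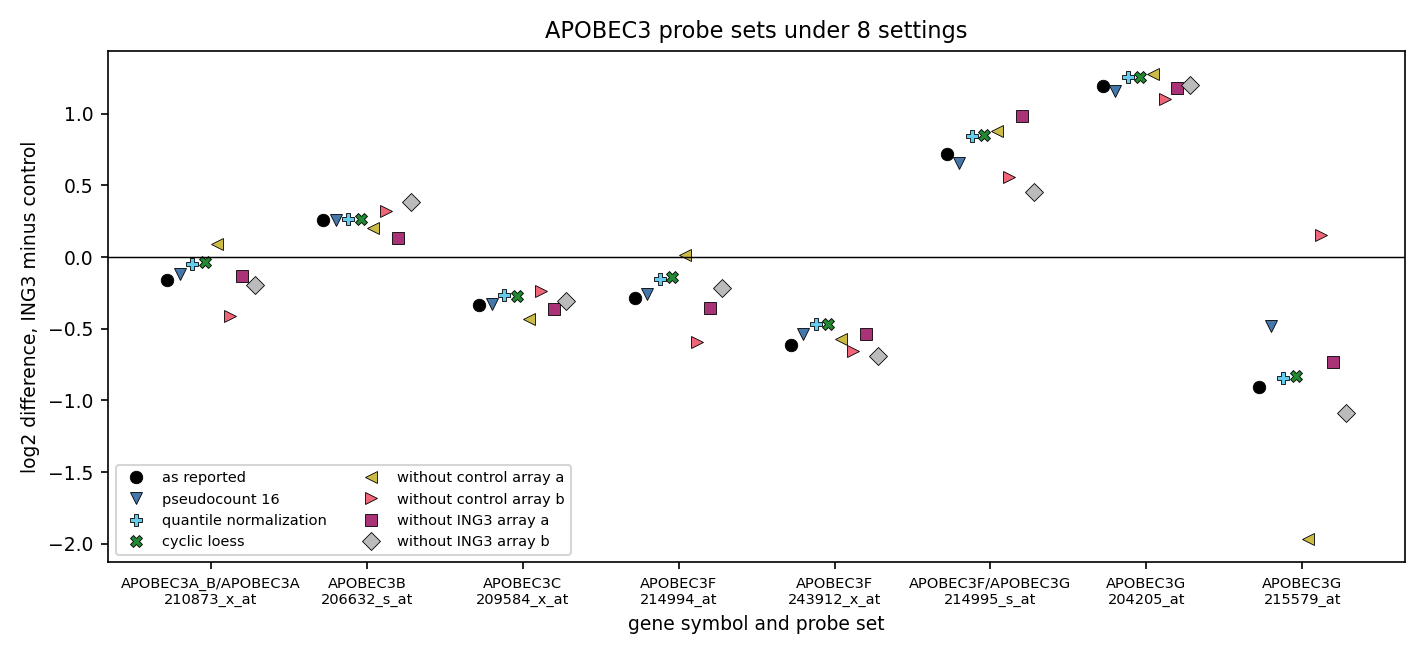
Log2 difference between ING3 and control cells of the 8 APOBEC3 probe sets as reported, with a pseudocount of 16, after quantile normalization or cyclic loess, and without each array in turn. The set 204205_at of APOBEC3G stays between 1.11 and 1.28, whereas 210873_x_at, 214994_at and 215579_at change sign when a control array is left out.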

How the data were processed

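The authors deposited linear MAS5 signal intensity values for 54675 probe sets, for which the submitters' processing notes name MAS5 and the Affymetrix Expression Console. Their versions were not given in the sources used here. MAS5 uses mismatch oligonucleotides and a scale factor for each array, and its dim values vary widely. Of the probe sets 62 were controls and were left out. The platform annotation of 2016 gave 41097 probe sets 1 symbol and 1801 several. 11777 were unnamed. Each gene took its brightest probe set, and the shared APOBEC3 sets were rows of their own. Signals were transformed as log2(signal + 1), so fold changes of dim genes are understated. Features whose mean log2 reached the median of all probe sets were tested (12191), with limma 3.58.1 in R 4.3.3 (lmFit, eBayes with an intensity trend, two-sided, Benjamini-Hochberg adjusted over all tested features, no covariates, no further normalization). "Rose" is used for adjusted p under 0.05. P-values measure only the spread between technical duplicates; an exact permutation of 2 against 2 arrays cannot go below 0.33. The limma script was tested on simulated data.

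Members and lists were chosen with earlier results of these data known. Genes named were every APOBEC3 probe set, the other AID/APOBEC genes, the flanking genes, up to 4 called members of each list or up to 3 by brightness, the 5 genes nearest APOBEC3G, and ING3. TRIM22, BST2, MX1, OASL, FEN1, RO60, PTPRC, CD3D, CD3E, CD3G, CD4, PRF1, ITGAM, EPCAM, CDH1, KRT18, ITGA6, VIM and UCA1 were named after their values were seen. Arrays have no read depth, and their number limits the precision.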

Additional observations from a re-analysis of the deposited data

How the results depend on the processing

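APOBEC3G kept its direction under every setting run, though 5 alternatives cannot move the difference of a single probe set. Nor could leaving out 1 array reverse 204205_at, since all 4 pairs of arrays already had the ING3 array higher. Averaging the 3 probe sets that name it, the dim and the shared one included, gave a log2 difference of 0.33. APOBEC3F reversed: -0.060 as the mean of its probe sets, and -0.29 both without _x_at and _s_at sets and, in an alternative chosen after seeing the data, from sets with 1 symbol. APOBEC3G was the 1 member called. Without the intensity trend 0 members were called, and 0 with averaged probe sets, an average that kept the shared sets as rows of their own. No member was called with either control array left out. Called features numbered 183 as reported, 54 without the filter, 115 after quantile normalization, 0 without the trend (1686 at an unadjusted p under 0.05), 37 with averaged probe sets, 100 without _x_at and _s_at sets, and 101 with every probe set as a feature (added after seeing the data). They numbered 2 with either control array left out (AKR1C1 and UCA1) and up to 305 without ING3 array a. Called list genes numbered 5 as reported, 1 without the filter, 2 after quantile normalization, 2 after cyclic loess, 2 without _x_at and _s_at sets, 0 without the trend, 0 with averaged probe sets, and 0 to 5 with an array left out; without ING3 array b they were KRT8, KRT19, CXCL8 and FEN1, the last pair not among the 5. The letters a and b did not pair the arrays (deviations from the group means correlated at 0.028); with the letter as a replicate block 442 features were called, APOBEC3G among them, and 7 list genes, which added FEN1 and RO60 to the 5; CCN2 and C11orf96 were also called with it (adjusted p = 0.029 and 0.041). The causes were not tested. No flanking gene was called under any of these settings.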
